A study of Mus musculus with 9 samples.

Results

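The glutathione S-transferases described here are 10 genes, *Gsta2*, *Gsta3*, *Gsta4*, *Gstm1*, *Gstm2*, *Gstm3*, *Gstm4*, *Gstp1*, *Gstt1* and *Gstt2*, taken by gene symbol from the 22206 transcript clusters of a liver microarray table. All 10 were measured, each by 1 cluster. RNA came from whole liver of male mice, 6 weeks old at purchase, on standard chow, and was hybridised to Clariom S mouse arrays. The groups were ob/ob mice (C57BL/6JHamSlc-ob/ob) gavaged with rice bean (*Vigna umbellata*) extract at 100 mg per kg body weight for 42 days, ob/ob mice given vehicle for 42 days, and wild-type mice (C57BL/6JHamSlc-+/+) given vehicle for 42 days, with 3 arrays each. In ob/ob mice the leptin gene is mutated in every cell from conception, which removes this appetite-limiting fat hormone, so the comparison with wild type holds the genotype together with the obesity and fatty liver that come with it. No wild-type mice given the extract were analysed here.

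Glutathione S-transferases join the tripeptide glutathione to electrophilic compounds, which makes these more soluble and ready for export from the cell. Soluble enzymes work as dimers and are sorted by sequence into classes, among them alpha (*Gsta*), mu (*Gstm*), pi (*Gstp*) and theta (*Gstt*). Hepatocytes carry them in large amounts, and in mouse liver many alpha and mu genes are induced through NRF2, the transcription factor that binds the antioxidant response element after oxidative or electrophilic stress. The pi-class protein is a main glutathione S-transferase of male mouse liver and is known there to be more abundant in males than in females.

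The promoter windows of 5 genes from RefSeq are shown because they belong to genes that moved in opposite directions or hold a motif. Each runs from 250 bases before to 50 after the annotated start, on assembly GRCm38.p6, written 5′ to 3′ on the gene's strand. The table held a window for 8 of the 10 genes, *Gsta4* and *Gstt2* being without one. *Gstp1* (chr19:4037863-4038162, minus strand) fell in ob/ob liver, as did its neighbour *Gstp2* (chr19:4042172-4042471, minus strand). *Gsta2* (chr9:78347096-78347395, minus strand) and *Gstm3* (chr3:107969125-107969424, minus strand) rose. *Gsta3* (chr1:21240335-21240634, plus strand) was not called changed. Capitals mark TGANTCA, the palindromic site of AP-1 family factors, and TGACNNNGC, the core of the antioxidant response element, searched on both strands.
Gstp1: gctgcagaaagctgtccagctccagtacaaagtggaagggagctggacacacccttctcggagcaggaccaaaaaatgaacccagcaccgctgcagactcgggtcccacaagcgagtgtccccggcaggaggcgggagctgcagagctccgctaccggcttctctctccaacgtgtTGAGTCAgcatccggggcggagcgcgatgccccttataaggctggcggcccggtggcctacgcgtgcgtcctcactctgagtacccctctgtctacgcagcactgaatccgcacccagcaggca
Gstp2: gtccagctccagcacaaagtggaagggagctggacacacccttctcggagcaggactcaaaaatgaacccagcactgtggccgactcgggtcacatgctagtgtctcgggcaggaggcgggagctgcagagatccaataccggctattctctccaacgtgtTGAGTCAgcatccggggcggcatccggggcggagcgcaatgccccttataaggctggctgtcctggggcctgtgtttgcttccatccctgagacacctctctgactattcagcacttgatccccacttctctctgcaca
Gsta2: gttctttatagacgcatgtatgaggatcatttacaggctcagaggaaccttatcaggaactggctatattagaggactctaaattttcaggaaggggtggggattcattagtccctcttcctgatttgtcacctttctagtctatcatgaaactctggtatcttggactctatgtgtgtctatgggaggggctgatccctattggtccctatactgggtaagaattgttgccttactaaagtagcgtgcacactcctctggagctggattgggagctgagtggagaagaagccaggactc
Gstm3: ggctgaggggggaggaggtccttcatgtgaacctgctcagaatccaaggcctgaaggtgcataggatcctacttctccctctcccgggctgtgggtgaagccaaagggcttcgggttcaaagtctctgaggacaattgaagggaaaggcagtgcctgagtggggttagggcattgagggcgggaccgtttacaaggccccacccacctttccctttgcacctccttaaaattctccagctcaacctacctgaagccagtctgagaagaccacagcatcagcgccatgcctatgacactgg
Gsta3: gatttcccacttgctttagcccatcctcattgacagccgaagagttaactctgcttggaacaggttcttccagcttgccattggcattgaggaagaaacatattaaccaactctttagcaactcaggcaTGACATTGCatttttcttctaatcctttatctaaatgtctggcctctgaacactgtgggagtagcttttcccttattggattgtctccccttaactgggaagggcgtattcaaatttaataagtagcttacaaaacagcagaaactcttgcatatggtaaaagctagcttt
The element core was found in 12.4% of the 32851 windows in the table. Among the 8 members' genes with a window it lay in *Gsta3*, as TGACATTGC from -121 to -113 relative to the start. The AP-1 letters were found in 7.81% of all windows, and among those 8 genes in *Gstp1*, as TGAGTCA from -74 to -68. This motif was added to the search after the promoters were seen, so its matches are a description only. Among other transferase genes, *Gstp2* held TGAGTCA from -89 to -83. *Gstm5*, whose difference between ob/ob vehicle and wild type was 0.94 and not called, held the AP-1 letters as TGACTCA from -176 to -170 and the element core as TGACCACGC from -42 to -34. A window of *Gstm7* held the core as TGACAAAGC from -129 to -121. The windows of *Gsta1*, *Gstm6*, *Gstp3*, *Gstt3*, *Gstk1* and *Mgst3* were searched as well and held neither motif. The *Gstp1* and *Gstp2* windows also shared an unbroken run of 43 bases, from -224 to -182 in *Gstp1* and from -237 to -195 in *Gstp2*. A match describes these letters in this window, and its absence says nothing about elements farther away.

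Values are the log2 expression values that the authors deposited, 1 per cluster and array. Array medians lay between 5.07 and 5.36. Arrays ob/ob vehicle 3 and wild-type vehicle 3 stood apart, with correlations to the other arrays of their groups of 0.948 to 0.955, against 0.980 to 0.990 among the other arrays of a group. Hepatocyte markers averaged 18.07 to 18.45 on extract arrays, 17.94 to 18.42 on ob/ob vehicle arrays and 18.58 to 18.74 on wild-type arrays. Olfactory receptor genes (1091 clusters) were taken as silent in liver. The middle 95% of their values ended at 5.33 to 6.62, and all 10 transferases lay above that on all 9 arrays. The lowest rank of any of them on an array was the 85.5 percentile of all clusters, for *Gstt1*. Adipocyte markers (4 of 4) and B-cell markers (3 of 3) lay within the silent range in each group, as did 7 of 8 T and NK cell markers and 4 of 6 cholangiocyte markers.

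The first question was how the transferases of ob/ob liver differ from those of lean wild-type liver. In ob/ob vehicle liver 5 of the 10 genes rose (*Gsta2*, *Gstm2*, *Gstm3*, *Gstm4* and *Gstt1*), 1 fell (*Gstp1*) and 4 did not pass the test (*Gsta3*, *Gsta4*, *Gstm1* and *Gstt2*). A call is an adjusted p under 0.05, from limma with Benjamini-Hochberg adjustment over all clusters. Over all clusters 2.28% rose, 0.68% fell and 2.96% did either. The largest difference was that of *Gstm3*, 6.30 on the log2 scale, and *Gstp1* fell by 3.00 on the log2 scale. The median difference of the 10 genes was 1.40, beside -0.06 for all clusters. Without arrays ob/ob vehicle 3 and wild-type vehicle 3 the counts were 6 higher and 1 lower. By the criterion of the study's design text (linear fold over 1.1 and p under 0.05 before adjustment) 7 of the 10 were higher and 1 was lower, against 10.3% and 6.72% of all clusters (17% in either direction). The groups did not overlap for 7 genes with ob/ob vehicle higher and 1 lower, against 9.71% and 9.78% of all clusters (19.5% in either direction). These are bulk samples, in which fewer cells of a type and less RNA per cell cannot be told apart.

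**Figure D1:**
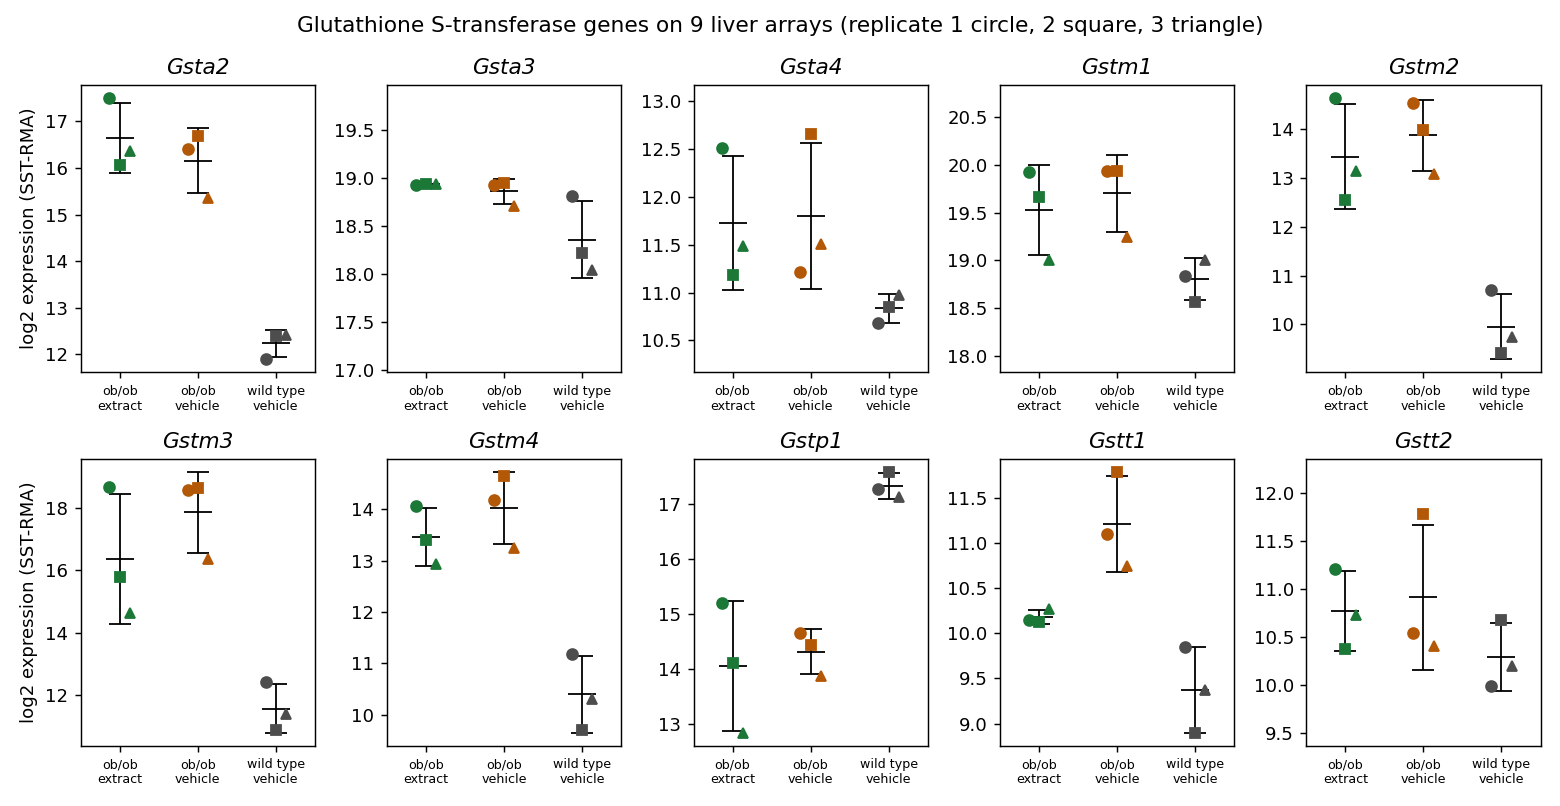
Log2 expression (SST-RMA) of the 10 glutathione S-transferase genes on each array, with the extract group left, ob/ob vehicle in the middle and wild-type vehicle right. Symbols give the replicate number, and black bars the group mean ± SD (n = 3); panels have separate axes of at least 3 log2 units. The *Gsta2*, *Gstm2*, *Gstm3* and *Gstm4* values of both ob/ob groups lie above, and the *Gstp1* values below, all wild-type values.

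Among the mu-class genes, *Gstm3* encodes an enzyme that NRF2 is known to induce in mouse liver. Its log2 value was 18.60, 18.64 and 16.36 on the ob/ob vehicle arrays, against 12.41, 10.89 and 11.39 on the wild-type arrays. The groups lay far apart, although ob/ob vehicle 3 was more than 2 log2 units under its group's other arrays. The mean was 17.87 ± 1.30 in ob/ob vehicle mice and 11.56 ± 0.77 in wild-type mice (SD, n = 3 each), a difference of 6.30 (SE 0.94, limma adjusted p = 0.00812) or 79-fold on the linear scale. The call was lost without wild-type replicate 2 (adjusted p = 0.0532).

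*Gstm2*, another mu-class gene, had 14.54, 13.99 and 13.09 in ob/ob vehicle, against 10.70, 9.42 and 9.75 in wild type. All ob/ob values exceeded all wild-type values, and the difference was 3.92 (SE 0.56, limma adjusted p = 0.0065), or 15.1-fold. *Gstm4*, the last mu-class gene of the chromosomal row described below, had 14.17, 14.64 and 13.25 in ob/ob vehicle, against 11.18, 9.70 and 10.31 in wild type. Its groups did not overlap either, with a difference of 3.62 (SE 0.46, limma adjusted p = 0.00397), or 12.3-fold.

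*Gstm1*, the most abundant mu-class enzyme of mouse liver, sat near the top of the scale. It read 19.93, 19.93 and 19.24 in ob/ob vehicle, against 18.84, 18.57 and 19.00 in wild type. The groups did not overlap, and the difference of 0.90 (95% interval 0.21 to 1.58) had a limma adjusted p of 0.164. Its value was the array's maximum on 3 arrays (extract 1 and ob/ob vehicle 1 and 2), so how far it lay above the wild-type level there could not be read. Without arrays ob/ob vehicle 3 and wild-type vehicle 3, *Gstm1* passed the test (adjusted p = 0.0421), and with array weights too (adjusted p = 0.025).

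Of the alpha class, *Gsta2* encodes a transferase that also reduces lipid hydroperoxides. It had 16.41, 16.69 and 15.36 in ob/ob vehicle, against 11.90, 12.39 and 12.41 in wild type. The lowest ob/ob value was almost 3 log2 units above the highest wild-type value. The means were 16.15 ± 0.70 in ob/ob vehicle mice and 12.23 ± 0.29 in wild-type mice (SD, n = 3 each), with a difference of 3.92 (SE 0.43, limma adjusted p = 0.00196), or 15.1-fold. This call held under all 19 alternative settings.

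*Gsta3*, whose mouse enzyme detoxifies aflatoxin epoxide, was high in every mouse, at 18.93, 18.95 and 18.71 in ob/ob vehicle, against 18.81, 18.22 and 18.04 in wild type. The groups overlapped, and the difference of 0.51 (95% interval -0.05 to 1.07) had a limma adjusted p of 0.349. Its values came within 1 log2 unit of the array maximum on 5 arrays. *Gsta4*, which conjugates the lipid peroxidation product hydroxynonenal, had 11.22, 12.66 and 11.51 in ob/ob vehicle, against 10.68, 10.85 and 10.98 in wild type. The ob/ob values were all above the wild-type values but spread widely. The difference of 0.96 (95% interval 0.02 to 1.90) did not pass (limma adjusted p = 0.283).

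*Gstp1*, the pi-class gene, went the other way. It had 14.65, 14.44 and 13.87 in ob/ob vehicle, against 17.26, 17.58 and 17.12 in wild type. Every ob/ob value was over 2 log2 units below every wild-type value. The means were 14.32 ± 0.40 in ob/ob vehicle mice and 17.32 ± 0.24 in wild-type mice (SD, n = 3 each), a difference of -3.00 (SE 0.50, limma adjusted p = 0.013) or 8-fold lower. The call was narrowly lost without ob/ob vehicle replicate 2 (adjusted p = 0.0508) or wild-type replicate 2 (0.0723), with the direction kept.

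In the theta class, *Gstt1*, whose enzyme acts on small halogenated molecules, had 11.10, 11.79 and 10.75 in ob/ob vehicle, against 9.85, 8.90 and 9.37 in wild type. The groups did not overlap, with a difference of 1.84 (SE 0.33, limma adjusted p = 0.0178), or 3.58-fold. That call was lost with only both groups in the fit (adjusted p = 0.0764) and without ob/ob vehicle replicate 1 (0.0608) or 2 (0.0679) or wild-type replicate 2 (0.0824) or 3 (0.056). *Gstt2*, the other theta-class member, had 10.54, 11.79 and 10.41 in ob/ob vehicle, against 9.99, 10.68 and 10.20 in wild type. Those ranges overlapped, and the difference of 0.62 (95% interval -0.24 to 1.49) was not called (limma adjusted p = 0.466).

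**Figure D2:**
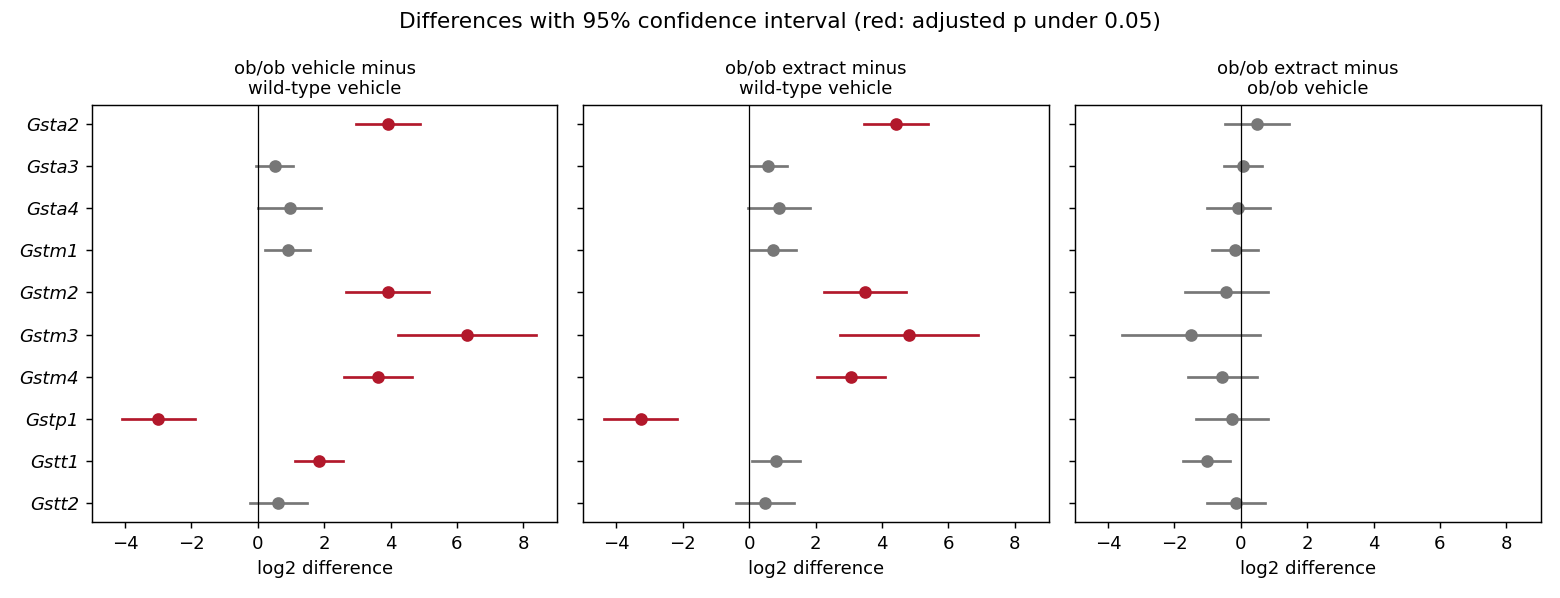
Log2 difference of each gene with its 95% confidence interval in the 3 comparisons, named above each panel; red marks an adjusted p under 0.05. In ob/ob vehicle minus wild type *Gstm3* stands highest at 6.30 and *Gstp1* lowest at -3.00, and in extract minus ob/ob vehicle all 10 points are grey.

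The next question was whether the extract changed these genes in ob/ob mice. None of the 10 genes was called (limma with Benjamini-Hochberg adjustment), and over all clusters 0% were called, the smallest adjusted p being 0.593. Array weights gave 106 called clusters, an interquartile-range covariate gave 1 and leaving out both divergent arrays gave 360, but no transferase of the 10 in any of these. By the design text's criterion 1 of the 10, *Gstt1*, was lower with the extract, against 2.9% of all clusters lower, 3.56% higher and 6.45% in either direction. *Gstt1* was also the single member whose groups did not overlap, a state found lower in 6.08%, higher in 7.47% and in either direction in 13.6% of all clusters.

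*Gstt1* had 10.15, 10.13 and 10.27 in extract-treated ob/ob mice, against 11.10, 11.79 and 10.75 in ob/ob mice on vehicle. The extract values were tight and all below the vehicle values, and they lay above the wild-type values of 8.90 to 9.85. The means were 10.18 ± 0.08 with extract and 11.21 ± 0.53 with vehicle (SD, n = 3 each). The difference was -1.03 (95% interval -1.75 to -0.31, limma unadjusted p = 0.00961), with an adjusted p of 0.731.

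*Gstm3* had the widest spread with the extract, at 18.68, 15.80 and 14.64, against 18.60, 18.64 and 16.36 with vehicle. Extract 1 matched the highest vehicle arrays, while extract 2 and extract 3 both fell below every vehicle array. The difference was -1.49 (95% interval -3.58 to 0.59, limma adjusted p = 0.833), an interval that holds both no change and a large fall. For *Gstm2* the extract values were 14.64, 12.54 and 13.14 and for *Gstm4* 14.06, 13.40 and 12.94, and both overlapped the vehicle values. Their differences were -0.43 (95% interval -1.68 to 0.81) and -0.55 (-1.58 to 0.48).

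*Gsta2* had 17.50, 16.07 and 16.37 with extract, and its difference from vehicle was 0.49 (95% interval -0.46 to 1.45, limma adjusted p = 0.866). *Gstp1* had 15.20, 14.12 and 12.85, with a difference of -0.26 (95% interval -1.36 to 0.83, limma adjusted p = 0.95). On every extract array *Gsta2* lay above, and *Gstp1* below, all wild-type values. *Gsta3* read 18.93, 18.94 and 18.94 with extract, and its interval was the narrowest of the 10, -0.49 to 0.63 around 0.07. These values, and 18.93 and 18.95 on ob/ob vehicle 1 and 2, lay close together near the top of the scale. Whether this narrowed the interval was not tested. *Gstm1*, with 19.92, 19.66 and 19.00, differed by -0.17 (95% interval -0.86 to 0.51). Its values on extract 1 and on ob/ob vehicle 1 and 2 were the array maximum, so this difference could not be fully read. *Gsta4*, with 12.51, 11.18 and 11.49, differed by -0.07 (-1.01 to 0.87), and *Gstt2*, with 11.21, 10.37 and 10.73, by -0.14 (-1.01 to 0.72). The intervals of *Gstp1*, *Gstm1*, *Gsta4* and *Gstt2* each held a change of over 0.5 log2 units in either direction.

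Against wild type, extract-treated ob/ob liver had 4 of the 10 genes higher (*Gsta2*, *Gstm2*, *Gstm3* and *Gstm4*), 1 lower (*Gstp1*) and 5 not called. Over all clusters 0.977% rose, 0.315% fell and 1.29% did either. This comparison shares its wild-type arrays with the first and its extract arrays with the second, so the 3 are not independent. By the design text's criterion 7 of the 10 were higher and 1 lower, against 8.21% and 5.82% of all clusters (14% in either direction). Without overlap 7 were higher and 1 lower, against 11.1% and 10.6% (21.7% in either direction). The median difference was 0.85, beside -0.05 for all clusters.

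*Gsta2* averaged 16.65 ± 0.75 with extract and 12.23 ± 0.29 in wild type (SD, n = 3 each), a difference of 4.41 (SE 0.43, limma adjusted p = 0.00108). *Gstm3* averaged 16.37 ± 2.08 with extract and 11.56 ± 0.77 in wild type, a difference of 4.81 (SE 0.94, limma adjusted p = 0.039). *Gstm2* was higher by 3.48 (SE 0.56, limma adjusted p = 0.0153) and *Gstm4* by 3.07 (SE 0.46, limma adjusted p = 0.0115). *Gstp1* averaged 14.06 ± 1.18 with extract and 17.32 ± 0.24 in wild type, a difference of -3.26 (SE 0.50, limma adjusted p = 0.0117). The mu-class calls depended on single mice. The *Gstm3* call was lost without extract 1 (adjusted p = 0.0797), without extract 2 (0.14) and without wild-type 2 (0.164) or 3 (0.123), among others. *Gstm2* was lost without extract 1 (adjusted p = 0.0507) or wild-type 2 (0.0823) or 3 (0.0575), and *Gstm4* without extract 1 (0.0618), extract 2 (0.0705) or wild-type 2 (0.0617). *Gstp1* was lost without extract 2 (0.0705) or wild-type 2 (0.0682), while *Gsta2* kept its call under all 19 alternatives.

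*Gstt1* differed from wild type by 0.81 with extract (95% interval 0.09 to 1.53, limma adjusted p = 0.298), beside 1.84 with vehicle. *Gsta3* differed by 0.58 (95% interval 0.02 to 1.14), *Gsta4* by 0.89 (-0.05 to 1.83), *Gstm1* by 0.72 (0.04 to 1.41) and *Gstt2* by 0.48 (-0.39 to 1.35). None of these 5 passed the limma test, with adjusted p from 0.298 to 0.618.

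The members' order of arrays within a group was set beside that of all clusters. Extract 1 was the highest array of its group for 8 of the 10 genes, all but *Gsta3* and *Gstt1*, whereas it was the highest for 36.5% of all clusters and for 25.3% of the 2244 clusters with a mean of at least 10. The lowest extract array was split: array 2 for 5 genes (*Gsta2*, *Gsta4*, *Gstm2*, *Gstt1* and *Gstt2*), array 3 for 4 (*Gstm1*, *Gstm3*, *Gstm4* and *Gstp1*) and array 1 for *Gsta3*. Array 2 was lowest for 30.2% of all clusters and 21% of those with a mean of at least 10, and array 3 for 34.7% and 23.9%. Ob/ob vehicle 3 was the lowest of its group for 9 of the 10, all but *Gsta4*, against 36.9% of all clusters and 53.8% of those with a mean of at least 10. That is one of the arrays that stood apart. In wild type, array 1 was the highest for *Gsta3*, *Gstm2*, *Gstm3*, *Gstm4* and *Gstt1*, which is 5 of the 10, against 33.1% of all clusters and 59.1% of those with a mean of at least 10. *Gstp1*, which lay on the other side of wild type, was also highest on extract 1 and lowest on ob/ob vehicle 3 within its groups. The highest ob/ob vehicle array was array 2 for 7 genes and array 1 for *Gstm1*, *Gstm2* and *Gstp1*.

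**Figure D3:**
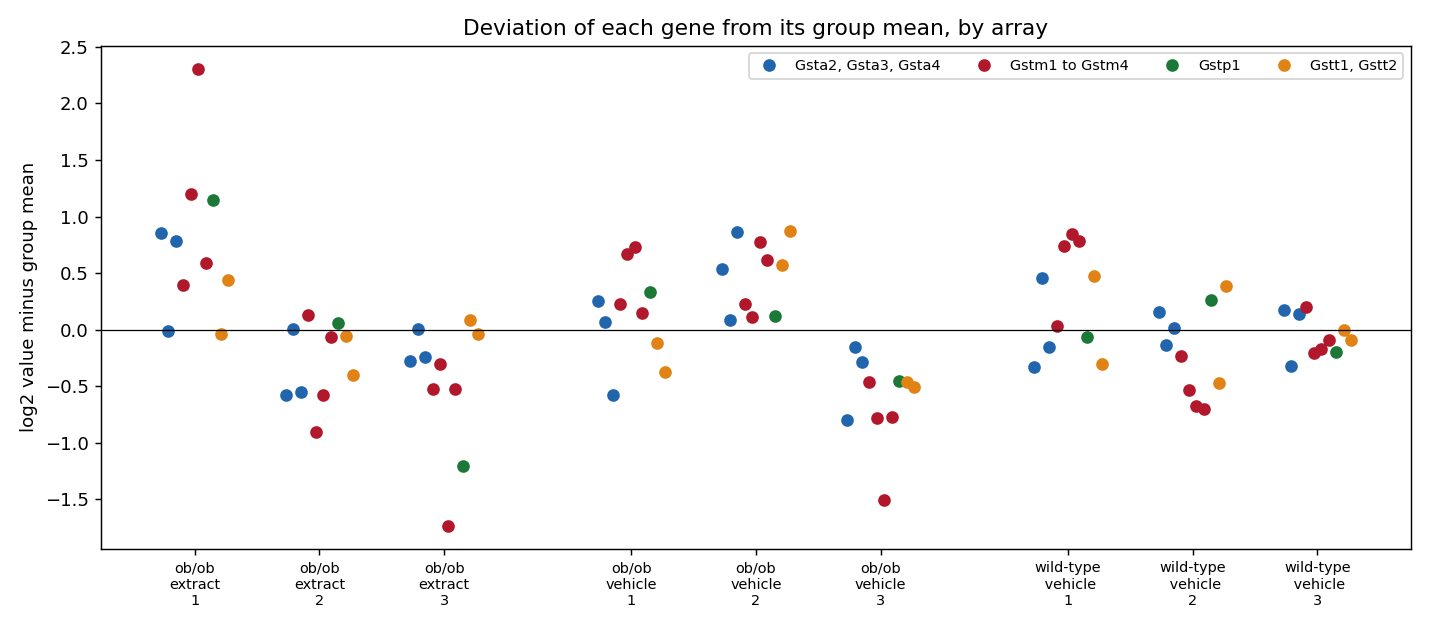
Log2 value of each gene minus its group mean, for the 9 arrays, with extract arrays left, ob/ob vehicle arrays in the middle and wild-type arrays right; colours give the class. Extract 1 lies above its group mean for 8 of the 10 genes, and ob/ob vehicle 3 is lowest of its group for 9 of the 10.

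A further 15 glutathione transferase genes were measured out of 17 listed. Of all clusters 2.28% rose and 0.68% fell in ob/ob vehicle against wild type. Of these 15 genes 4 rose, 1 fell and 10 were not called, with a median of 0.43. Those that rose were *Gstt3* (3.48, adjusted p = 0.0314), *Gstm6* (2.28, adjusted p = 0.0462), *Mgst3* (2.07, adjusted p = 0.0483), a membrane-bound enzyme, and *Gstk1* (1.55, adjusted p = 0.0331), the kappa-class enzyme of mitochondria and peroxisomes, all by limma. With quantile normalization 1 rose and 1 fell, and of the 9 fits that left out a single array the call was lost in 7 for *Gstt3*, 7 for *Gstm6*, 6 for *Gstk1* and 5 for *Mgst3*. *Mgst1*, the abundant microsomal enzyme, sat at the array maximum on all 9 arrays, so no change in it could be read. With extract against ob/ob vehicle 0 of the 15 were called, as were 0% of all clusters. With extract against wild type *Gstk1* rose (1.76, limma adjusted p = 0.0285, and 0.0538 with quantile normalization) and *Gstp2* fell. This *Gstk1* call was lost in 5 of the 9 fits that left out a single array (limma adjusted p up to 0.154). The shares of all clusters for extract against wild type were 0.977% higher and 0.315% lower. Without both arrays that stood apart 4 of the 15 rose and 1 fell.

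*Gstp2*, the neighbour of *Gstp1* and a close copy of it, had 14.49, 13.83 and 12.58 with extract and 14.26, 14.23 and 13.37 with vehicle, against 16.58, 16.92 and 16.17 in wild type. Both ob/ob groups lay below wild type without overlap. The difference was -2.60 (SE 0.46, limma adjusted p = 0.0178) for ob/ob vehicle and -2.92 (limma adjusted p = 0.0144) for extract. The first call was lost without ob/ob vehicle 1 (adjusted p = 0.0526) or 2 (0.0544) or wild-type 2 (0.0844), and the second without extract 2 (0.0715) or wild-type 2 (0.0764). Probe sequences were not used here, so signal of *Gstp1* and *Gstp2* cannot be told apart. The same holds for mu-class genes of close sequence. *Gstp3*, the third gene of that row, lay between 5.01 and 6.81 on all arrays and differed by 0.28 between ob/ob vehicle and wild type.

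In the RefSeq order on chromosome 3 the mu-class genes follow each other as *Gstm5*, *Gstm7*, *Gstm6*, *Gstm3*, *Gstm2*, *Gstm1* and *Gstm4*. Their ob/ob vehicle minus wild-type differences, in that order, were 0.94, 1.96, 2.28, 6.30, 3.92, 0.90 and 3.62. All 7 were above 0, beside a median of -0.06 for all clusters, and that of *Gstm1* was limited by the top of the scale. Those of *Gstm6*, *Gstm3*, *Gstm2* and *Gstm4* were called, against 2.28% of all clusters higher and 0.68% lower. The *Gstm6* call was lost in 7 of the 9 fits that left out a single array. On chromosome 10 the theta-class genes lie as *Gstt3*, *Gstt1*, *Gstt4* and *Gstt2*, with differences of 3.48, 1.84, 0.32 and 0.62. *Gstt4* lay between 3.20 and 4.19 on all arrays, within the range of silent genes, so a change in it could not be read. Apart from *Gstt4* and *Gstm1*, the differences along these rows still varied in size, and the sizes were not tested against each other.

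**Figure D4:**
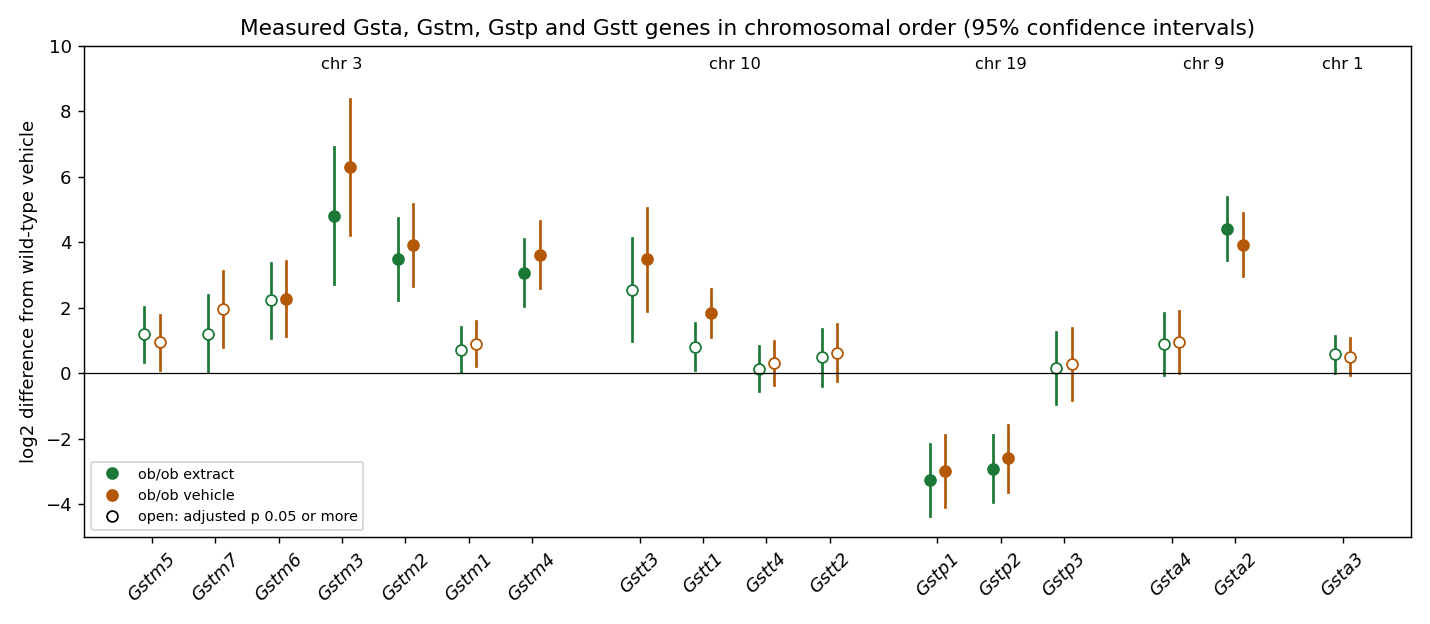
Log2 difference from wild-type vehicle, with 95% confidence interval, of extract-treated (green, left of each pair) and vehicle-treated ob/ob mice (brown), for the measured alpha, mu, pi and theta genes in chromosomal order; filled points have an adjusted p under 0.05. The mu-class row on chromosome 3 peaks at *Gstm3* (6.30 with vehicle), and *Gstp1* and *Gstp2* on chromosome 19 lie below 0.

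Among genes that make, recycle, use or export glutathione the picture was mixed. The shares of all clusters that rose and fell in ob/ob vehicle against wild type were 2.28% and 0.68%. Of 33 measured glutathione metabolism genes 7 rose and 0 fell in that comparison, with a median of 0.40. They included *Esd* (1.52, adjusted p = 0.0111), which hydrolyses formylglutathione, *Gpx4* (2.77, adjusted p = 0.0136), the lipid hydroperoxide peroxidase, *Abcc4* (3.35, adjusted p = 0.0191), an export pump, and *Glrx5* (1.96, adjusted p = 0.0204), a mitochondrial glutaredoxin, all by limma. With quantile normalization 5 rose and 0 fell, and without both arrays that stood apart 10 rose and 1 fell. Of the 9 fits that left out a single array, the call was lost in 4 for *Abcc4*, 4 for *Glrx5*, 2 for *Esd* and 1 for *Gpx4*. *Gclc*, the catalytic subunit of the rate-limiting enzyme of glutathione synthesis, had 14.39, 12.93 and 12.77 with extract and 14.59, 14.97 and 14.31 with vehicle, against 13.20, 11.78 and 13.44 in wild type. It was not called in any comparison, with a difference of -1.26 for extract against ob/ob vehicle (limma adjusted p = 0.765).

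Of 19 measured NRF2 targets other than transferases, 8 rose and 0 fell in ob/ob vehicle, against 2.28% and 0.68% of all clusters. All 19 differences were above 0, and their median was 1.70, beside -0.06 for all clusters. The counts were 5 and 0 with quantile normalization and 13 and 0 without both arrays that stood apart. *Nqo1*, the quinone reductase, had 11.51, 10.33 and 9.91 with extract and 9.81, 10.04 and 9.61 with vehicle, against 6.22, 6.97 and 5.79 in wild type. Both ob/ob groups stood clear of wild type, by 4.26 with extract (limma adjusted p = 0.00121) and 3.49 with vehicle (limma adjusted p = 0.00326). *Srxn1*, which reduces oxidised peroxiredoxins, had 9.22, 6.44 and 6.25 with extract and 9.77, 9.18 and 7.09 with vehicle, against 4.17, 4.97 and 4.15 in wild type. It was thus highest in its group on extract 1, as *Gstm3* was, and its ob/ob vehicle difference was 4.25 (limma adjusted p = 0.0254). Of the 9 fits that left out a single array, 5 lost this call (limma adjusted p up to 0.104). *Ftl1*, the ferritin light chain, rose by 2.04 (limma adjusted p = 0.00414) and *Taldo1*, of the pentose phosphate pathway, by 1.90 (limma adjusted p = 0.0142). Single left-out arrays removed the *Taldo1* call in 3 of the 9 fits, and the ob/ob vehicle calls of *Ftl1* and *Nqo1* in 0. With extract against ob/ob vehicle 0 of the 19 were called, as were 0% of all clusters. Of the 19 differences 12 were below 0, with a median of -0.29, beside -0.01 for all clusters. Of these, *Hmox1*, haem oxygenase, was lower by the design text's criterion (-1.38, limma adjusted p = 0.593). It had 8.33, 8.05 and 7.75 with extract and 9.41, 9.35 and 9.50 with vehicle, against 8.35, 8.11 and 8.25 in wild type. This fall was called in 2 alternative settings (limma adjusted p down to 0.0256), but in 0 fits that left out a single array. With extract against wild type 6 of the 19 rose and 0 fell, against 0.977% and 0.315% of all clusters. The median was 1.54, beside -0.05 for all clusters.

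**Figure D5:**
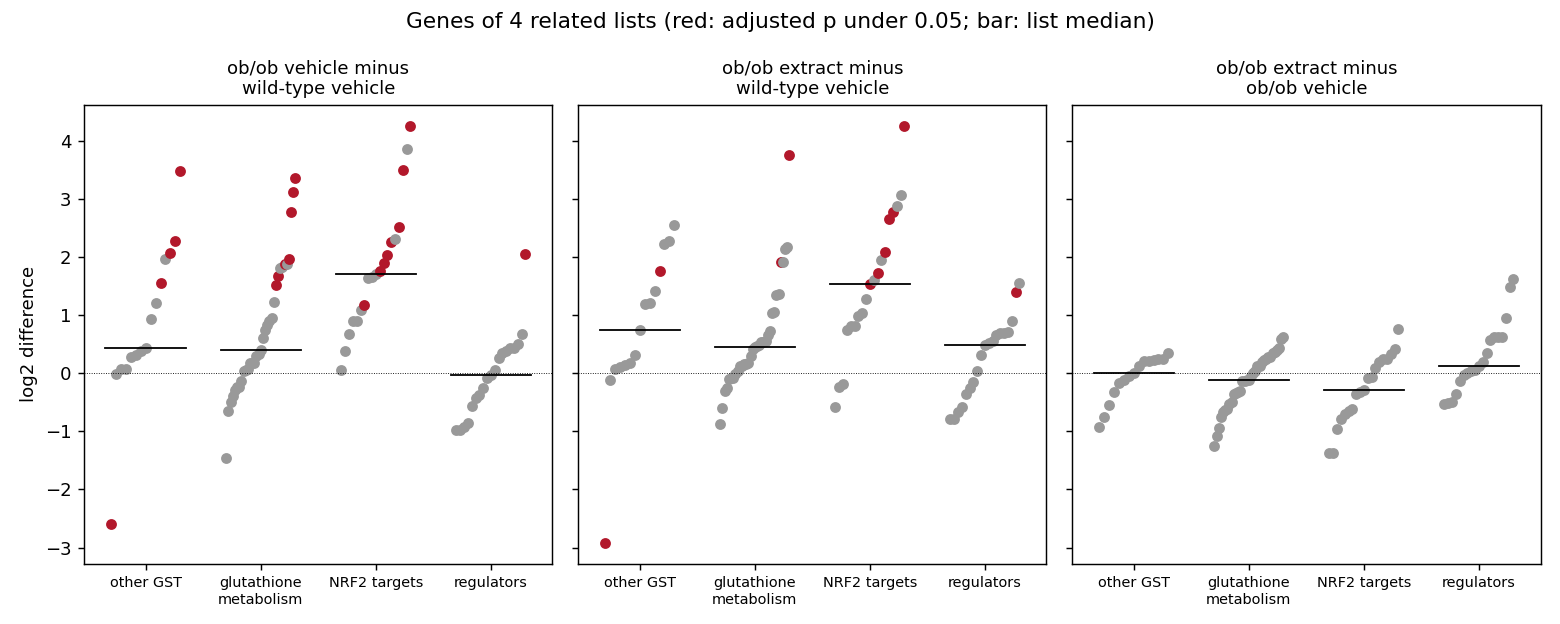
Log2 differences of the single genes of 4 lists in the 3 comparisons, ordered by size within each list; red marks an adjusted p under 0.05 and the bar the list's median. The NRF2 targets have a median of 1.70 in ob/ob vehicle minus wild type, and no point is red in extract minus ob/ob vehicle.

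Among 19 measured regulators 1 was called in ob/ob vehicle against wild type, beside 2.96% of all clusters in either direction. *Nfe2l2*, which encodes NRF2, had 6.70, 6.88 and 6.56 with extract and 7.82, 7.63 and 6.16 with vehicle, against 5.61, 4.67 and 5.18 in wild type. It was higher in ob/ob vehicle by 2.05 (SE 0.42, limma adjusted p = 0.032). Ob/ob vehicle 3 and the wild-type arrays lay at or within the range of silent genes, while ob/ob vehicle 1 and 2 and the extract arrays lay above it. The call was lost with both groups fitted alone (adjusted p = 0.111), with an interquartile-range covariate (0.0762) and in 7 of the 9 fits that left out a single array (up to 0.131). *Nr1i3*, the CAR receptor that induces several transferases in mouse liver, had 13.86, 14.09 and 13.73 with extract, against 12.78, 13.27 and 11.16 with vehicle. The extract values were all above the vehicle values, by 1.49 in the mean (95% interval 0.37 to 2.61), with a limma adjusted p of 0.741. In wild type *Nr1i3* had 12.61, 13.90 and 13.49. The lowest vehicle value was on ob/ob vehicle 3, which stood apart, and single left-out arrays gave differences of 0.87 to 1.92. *Cebpb*, a liver transcription factor, was higher with extract by 1.62 (SE 0.35, limma adjusted p = 0.593), also without a call. *Nr1i2*, the PXR receptor, was called higher in extract-treated ob/ob liver against wild type (1.39, limma adjusted p = 0.0495). Quantile normalization (limma adjusted p = 0.072), array medians subtracted (0.0523) or an interquartile-range covariate (0.102) removed the call. So did the replicate number as a block (0.057) and eBayes with trend and robust (0.081). Leaving out a single array removed it in 7 of the 9 fits (0.0604 to 0.222), among them each extract and wild-type array.

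Other gene groups moved with the same contrast. Of 10 male-biased liver genes 0 rose and 6 fell in ob/ob vehicle against wild type, with a median of -4.36. Of 11 measured female-biased genes 8 rose and 0 fell, with a median of 4.25. The shares of all clusters in this comparison were 2.28% higher and 0.68% lower. The mean level of the male-biased list was 10.07 to 11.73 on extract arrays and 10.43 to 10.84 on ob/ob vehicle arrays, against 14.73 to 15.42 on wild-type arrays. That of the female-biased list was 10.99 to 11.66 with extract and 10.73 to 11.97 with vehicle, against 6.71 to 6.93 in wild type. None of either list was called for extract against ob/ob vehicle, where 0% of all clusters were. Their part in the fall of *Gstp1* or in the rise of the other transferases was not tested. Of 12 measured pericentral genes 0 rose and 2 fell in ob/ob vehicle: *Cyp27a1* by 1.98 (limma adjusted p = 0.0291) and *Cyp1a2* by 2.79 (limma adjusted p = 0.0449, and 0.065 with the replicate number as a block). Both calls were lost when array medians were subtracted (adjusted p = 0.0517 for *Cyp27a1* and 0.0632 for *Cyp1a2*). Single left-out arrays removed the *Cyp27a1* call in 5 of the 9 fits and the *Cyp1a2* call in 8. Kupffer cell and macrophage markers averaged 5.90 to 6.83 on extract arrays and 7.17 to 7.28 on ob/ob vehicle arrays, against 6.33 to 7.01 in wild type, with 0 of 11 called in any comparison, and their part in the transferase values was not tested.

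The genes most like *Gstm3* over the 9 arrays by Pearson's r were *Rnf11* (0.982), *Tmem176a* (0.970) and *Pomt1* (0.968). Those most like *Gstp1* were *Gstp2* (0.995), *Nucb2* (0.983) and *Nanog* (0.982). *Nanog* lay between 4.06 and 5.17, within the range of silent genes. *Nucb2*, between 4.83 and 5.84, lay within that range on every ob/ob array and wild-type 3, and slightly above it on wild-type 1 and 2. The 9 arrays fall into 2 genotypes, and over the 6 ob/ob arrays alone r was 0.909, 0.913 and 0.913 for the first 3 genes and 0.976, 0.961 and 0.983 for the others. These genes were picked as the highest of all clusters with 1 symbol, so their r values are a description.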

How the data were processed

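Liver RNA of 9 mice, 3 per group by the design text, was hybridised to 1 array each (about 100 ng RNA per sample, per the labels' protocols). The deposited log2 values, 1 for every cluster and array, were normalized by SST-RMA, which lessens fold compression, with Transcriptome Analysis Console 4.0.2, per the design text. The values run from 1.86 to 19.93 and genes at the top cannot show a rise. The genome build is not given in the sources used here. Detection calls were not used. For arrays, the number of mice limits the precision, and an exact permutation test of 3 against 3 could not go below 0.1.

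The platform annotation gave 19572 of 22206 clusters 1 symbol. Comparisons used limma 3.58.1 (R 4.3.3), with a mean per group over all 9 arrays (6 residual and 4.45 prior degrees of freedom), eBayes and two-sided contrasts, as in the design text's analysis of variance with empirical Bayes. P-values were Benjamini-Hochberg adjusted over all clusters and called under 0.05. The fit was tested on simulated data. A linear fold is 2 to the power of the log2 difference.

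Members and gene lists were chosen with earlier results of these data known. Named were all 10 members, other transferases, up to 4 genes per list by smallest p in each comparison, and the 3 clusters most correlated with the members of largest rise and fall. The male-biased, female-biased and cell-type lists are given by counts or levels; *Gclc* under the ob/ob comparison was named through the extract comparison. Motif TGANTCA was added after the promoters were seen. Replicate numbers were checked by correlating deviations from group means: the 3 same-numbered pairs of ob/ob vehicle and wild type gave 0.256, 0.262 and 0.450, over the limit set for pairing, though the labels do not say what a number marks. Unlike-numbered pairs of arrays 1 and 2 gave 0.218 and 0.260, much like the first 2 of these. Pairs of an array 3, which stood apart in both groups, with an array 1 or 2 gave -0.386 to -0.292. The same-numbered pairs of the other comparisons gave -0.208 to 0.0157. Other normalizations, filters, samples, array weights, covariates, blocks and single left-out arrays were tried. No set test was run.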

Additional observations from a re-analysis of the deposited data

How the results depend on the processing

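Over the 30 results of the 10 genes in 3 comparisons, 19 alternatives gave 570 values, of which 533 kept direction and side of the threshold, 25 lost the call, 2 gained it (*Gstm1*, in the report) and 10 reversed. Reversals were all in extract against ob/ob vehicle, where no gene was called: *Gsta4* became 0.03 with quantile normalization and *Gsta2* -0.01 with array weights. Leaving out single mice gave ranges of -0.46 to 0.36 for *Gsta4*, -1.03 to 0.02 for *Gstm2*, -0.39 to 0.30 for *Gstt2*, -0.40 to 0.09 for *Gstm1* and -0.84 to 0.34 for *Gstp1*. With a mouse left out, the number of the 10 called ran from 3 to 6 (3 without wild-type 2, 4 without ob/ob vehicle 2) for ob/ob vehicle against wild type, 0 to 0 for extract against ob/ob vehicle and 1 to 5 (1 without wild-type 2, 2 without extract 1 or 2, 3 without wild-type 3) for extract against wild type. Array weights, and leaving out both arrays that stood apart, each gave 7 for ob/ob vehicle against wild type. Beyond the losses in the report, the *Gstm3* call in extract against wild type was lost with quantile normalization (adjusted p = 0.0667), an interquartile-range covariate (0.0644), eBayes trend and robust (0.0566), and without ob/ob vehicle 1 (0.0566) or 2 (0.06).

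Calls over all clusters for ob/ob vehicle against wild type numbered 658, but 207 with only both groups fitted, 2137 with array weights, 1745 without both arrays that stood apart and 147 to 1679 with a mouse left out. For extract against ob/ob vehicle they numbered 0 (1433 at unadjusted p under 0.05), but 106 under array weights, 1 given an interquartile-range covariate, 360 without both apart arrays and 0 to 51 with a mouse left out. For extract against wild type they numbered 287, but 796 with array weights, 595 without both apart arrays and 77 to 598 with a mouse left out. The higher share of calls for ob/ob vehicle was 77.1%, and 53.1% after quantile normalization; for extract against wild type it was 75.6% and 61.2%. Subtracting array medians moved the median of all clusters to 0.06 (-0.06 before) in ob/ob vehicle and to 0.09 (-0.05 before) in extract, both against wild type. Without both apart arrays the NRF2 targets counted 13 higher and 0 lower in ob/ob vehicle, glutathione metabolism genes 10 and 1, and other transferases 5 and 1; for extract against ob/ob vehicle the counts were 0 and 2, 0 and 2, and 0 and 1. Of 1215 values for the other named genes 132 lost a call, 46 gained one and 0 reversed. The replicate block gave 579 calls for ob/ob vehicle against wild type and changed no call of the 10 genes; same-numbered pairs involving extract arrays correlated between -0.208 and 0.0157, so they share only a number. Each gene had 1 cluster, so averaging clusters changed nothing. The cause of these shifts was not tested.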
